A study of Mus musculus with 12 samples.

Results

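The genes described here are the signal Pthlh with its receptor Pth1r, the 3 RUNX transcription factors Runx1, Runx2 and Runx3, and a set of genes named in bone biology, Sp7, Alpl, Ibsp, Spp1 and Mmp13. These 10 genes were taken by name from the 55335 genes in the deposited count tables. They were chosen because Pthlh and Runx2 had been found higher in midostaurin-treated tumors, so the tumor values below are a description and carry no test. Poly(A) RNA was sequenced from CT26, a mouse colorectal cancer line labelled WT, in 12 libraries that fall into 4 groups of 3. Subcutaneous CT26 tumors received midostaurin at 40 mg/kg from day 7 after inoculation for 2 weeks, or vehicle, and cultured cells received 1 µM midostaurin for 48 h, or DMSO. Midostaurin is a small-molecule inhibitor of several protein kinases. The labels give no age, sex or strain for the mice, and each tumor library holds RNA of the CT26 cells together with RNA of the host cells in the tumor. No label ties a library to a separate animal or culture, so each p-value reflects only how far these libraries vary, and that variation may be technical.

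Pthlh encodes parathyroid hormone-related protein, a secreted factor that acts through the receptor encoded by Pth1r. In the growth plate it holds back the maturation of chondrocytes, and when tumors release it, it can raise blood calcium by acting on bone and kidney. RUNX proteins bind DNA together with the subunit encoded by Cbfb. Runx1 is best known from blood formation, Runx2 from osteoblasts and hypertrophic chondrocytes, and Runx3 from T cells and sensory neurons. Sp7 encodes the transcription factor osterix, which acts after Runx2 in osteoblast formation. Alpl encodes tissue-nonspecific alkaline phosphatase, Ibsp encodes bone sialoprotein, Spp1 encodes osteopontin, and Mmp13 encodes collagenase 3, all of which are made in bone, with Spp1 also made by macrophages and many carcinomas.

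On mm10, Pthlh lies at chr6:147252101-147264183 (minus strand) and Pth1r at chr9:110722085-110747145 (minus strand). Runx1 lies at chr16:92601466-92826149 (minus strand), Runx2 at chr17:44495987-44814797 (minus strand) and Runx3 at chr4:135120652-135177990 (plus strand). Ibsp at chr5:104299171-104311469 and Spp1 at chr5:104435118-104441050 both lie on the plus strand of chromosome 5. Sp7 lies on chromosome 15, Alpl on chromosome 4 and Mmp13 at chr9:7272514-7283331 (plus strand), and all 10 are protein-coding.

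The promoter sequences are shown because several members moved together in the tumors and because RUNX proteins are known to act on their own promoters. RefSeq promoters on GRCm38.p6, which is the same assembly as mm10, run from 250 bases before to 50 bases after the transcription start. They were found for 9 of the 10 members, with 15 promoters in all, and Sp7 had no entry. Both strands were searched for the RUNX motif ACCACA, the AP-1 motif TGANTCA, the GLI motif GACCACCCA and the GC box GGGCGG. Among 32851 mouse promoters, 16.8% held the RUNX motif, 7.81% the AP-1 motif, 0.253% the GLI motif and 35.7% the GC box. The RUNX motif and the GLI motif can share letters, and such overlaps were counted under both.

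The first promoter of each RUNX gene held a pair of RUNX motifs with the same letters and spacing, AACCACAGAACCACA. This run was found in 4 of the 32851 promoters, those of Runx1, Runx2, Runx3 and the predicted gene Gm16225. It began 28 bases after the start in Runx1, 23 bases after it in Runx2, and 135 bases before it in Runx3. The 30 bases around it are given 5′ to 3′ on the strand of the gene, with the pair in capitals, from chr16:92826026-92826055 (minus strand), chr17:44814584-44814613 (minus strand) and chr4:135120502-135120531 (plus strand).
Runx1: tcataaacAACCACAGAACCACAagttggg
Runx2: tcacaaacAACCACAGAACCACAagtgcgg
Runx3: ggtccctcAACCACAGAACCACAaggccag
In treated tumors Runx1 and Runx2 were higher and Runx3 was lower by a narrow gap, as their values below show. A link between this run and the tumor values was not tested.

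The promoter of Pthlh, the member with the largest tumor difference, is shown with the GC box in capitals, in the 250 bases before the start at chr6:147264014-147264263 (minus strand).
Pthlh: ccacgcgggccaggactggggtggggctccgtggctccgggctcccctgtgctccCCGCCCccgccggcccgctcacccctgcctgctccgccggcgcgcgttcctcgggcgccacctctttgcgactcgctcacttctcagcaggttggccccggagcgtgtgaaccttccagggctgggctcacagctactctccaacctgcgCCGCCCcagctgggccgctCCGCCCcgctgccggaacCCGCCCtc
It held 4 GC boxes, and the letters of the RUNX, AP-1 and GLI motifs were not in this window. At least 2 GC boxes were found in 19.5% of all promoters. Mmp13 was the one member whose promoter held both the RUNX and the AP-1 motif, in capitals in the 250 bases before its start at chr9:7272264-7272513 (plus strand).
Mmp13: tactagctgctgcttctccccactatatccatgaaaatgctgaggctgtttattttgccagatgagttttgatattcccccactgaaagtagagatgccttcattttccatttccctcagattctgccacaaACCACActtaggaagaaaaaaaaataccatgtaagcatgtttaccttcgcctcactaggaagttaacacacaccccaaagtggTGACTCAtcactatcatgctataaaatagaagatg
The first Spp1 promoter held 1 RUNX motif, and Ibsp held none of the motifs searched. These matches describe letters in a window and were not tied to binding or to the values below.

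Library totals lay between 33399701 and 48109497 counts in tumors and between 34787389 and 38144039 counts in cells. Levels are given as CPM, the count of a gene scaled to the library total, after TMM scaling over all 12 libraries, and a level compared between genes is given as CPM per kilobase of exon. Treated tumors are numbered 2, 3 and 4 as in the count table, and the vehicle tumors and the cell libraries are numbered 1 to 3. Vehicle tumor 2 stood apart by its skin keratinocyte markers, with a summed level over 7 genes of 751 CPM against 1.50 to 1.80 CPM in the other 5 tumors. Krt14, the basal keratin, was at 500.3 CPM in it. Midostaurin tumor 3 stood apart by its neutrophil markers, with a sum of 678 CPM against 15.1 to 39.0 CPM in the other tumors. Members are given with and without these libraries, and other genes where the fold moved by over 1.5 times.

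Pthlh showed the largest tumor difference of the members. It was at 36.1, 43.5 and 26.2 CPM in midostaurin tumors 2, 3 and 4, against 3.62, 7.28 and 4.22 CPM in vehicle tumors 1, 2 and 3. Every treated tumor lay above every vehicle tumor. The means were 35.3 ± 8.65 CPM in midostaurin tumors and 5.04 ± 1.96 CPM in vehicle tumors (SD, n = 3 each), and the edgeR log2 fold change was 2.81 ± 0.32 (SE). By this fold change Pthlh stood at rank 18 of the 11014 genes with a mean tumor level of at least 5 CPM. Since Pthlh was chosen on this comparison, nothing is read from the rank. The highest vehicle value was that of tumor 2, the tumor with the high keratinocyte sum. Without that tumor the log2 fold change was 3.18, without midostaurin tumor 3 it was 2.63, and without both it was 3.00. The summed level of 8 intestinal epithelial markers was also higher, at 446 to 694 CPM in midostaurin tumors and 187 to 412 CPM in vehicle tumors. The markers did not move as a set. Of the 6 tested, 3 had a tumor log2 fold change above 0, and the median was -0.54. Nearly all of the sum was Krt20, while Epcam did not exceed 0.153 CPM in midostaurin tumors. In vehicle tumors 1, 2 and 3 Epcam was at 0.126, 2.44 and 0 CPM, so only the tumor with the high keratinocyte sum stood above the others. The part of these markers in the Pthlh difference was not tested.

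In cultured cells Pthlh was close to absent. The 3 midostaurin libraries held 4, 6 and 6 counts and the 3 DMSO libraries held 0 counts each. The level was at least 1.79-fold higher in midostaurin cells than the 0.0808 CPM that a floor of 3 counts per library allows in DMSO cells. An exact two-sided permutation test over the 6 libraries gave p = 0.1, which is the smallest p that 3 against 3 libraries allow. In the edgeR fit with no filter on low counts the unadjusted p was 0.00633 and the adjusted p was 1. Of all 55335 genes, 3 (0.00542%) had 0 counts in each DMSO library and at least 4 in each midostaurin library, and as many (0.00542%) showed the opposite. Against the same floor, Pthlh was at least 437-fold higher in midostaurin tumors than in DMSO cells and at least 62.4-fold higher in vehicle tumors than in DMSO cells, both as a description.

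Pth1r, the receptor, was barely detected. Midostaurin tumors 2, 3 and 4 held 3, 6 and 31 counts, and vehicle tumors 1, 2 and 3 held 43, 21 and 9 counts. The 2 groups overlapped, and the means were 0.309 ± 0.314 CPM in midostaurin tumors and 0.618 ± 0.438 CPM in vehicle tumors (SD, n = 3 each). No Pth1r count was found in any of the 6 cell libraries. In vehicle tumors it was at least 7.65-fold higher than the floor of the DMSO cells, which is given without a test because Pth1r passed the filter on low counts only through its tumor libraries. Its tumor log2 fold change was -0.96 ± 0.86 (SE), and it was -2.23 without midostaurin tumor 4, -0.28 without vehicle tumor 1, and -0.77 without vehicle tumor 2 and midostaurin tumor 3. The ligand was thus higher in tissue in which its receptor stayed at or below 1.08 CPM in each tumor.

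Runx2 was the second member the choice rested on. It was at 125, 132 and 115 CPM in midostaurin tumors, against 63.1, 72.6 and 70.9 CPM in vehicle tumors. Treated and vehicle tumors did not overlap, and the spread within each group was small beside the gap. Mean levels were 124 ± 8.59 CPM in midostaurin tumors and 68.9 ± 5.08 CPM in vehicle tumors (SD, n = 3 each), with a log2 fold change of 0.85 ± 0.09 (SE). It kept between 0.80 and 0.91 with any 1 tumor left out, and was 0.85 without vehicle tumor 2 and midostaurin tumor 3 together. The antisense transcript Runx2os1 shares 519 exon bases with Runx2 and had 17 to 68 counts per library. The strand setting of the counting is not known here, so reads of the shared bases cannot be assigned with certainty.

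Runx1 was also higher in treated tumors, by less. Its levels were 111, 121 and 133 CPM in midostaurin tumors, against 85.6, 101 and 87.1 CPM in vehicle tumors. The groups did not overlap, and the log2 fold change was 0.41 ± 0.10 (SE), or 0.50 without vehicle tumor 2 and midostaurin tumor 3. Runx3 went the other way, with 24.1, 22.2 and 24.0 CPM in midostaurin tumors, against 24.3, 30.0 and 28.1 CPM in vehicle tumors. The gap between the highest treated and the lowest vehicle value was narrow, and the log2 fold change was -0.23 ± 0.11 (SE), or -0.12 without vehicle tumor 2 and midostaurin tumor 3. In T cells Runx3 is a lineage factor, and the summed level of 8 T and NK cell markers was 21.7 to 35.3 CPM in midostaurin tumors and 25.2 to 35.3 CPM in vehicle tumors.

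Spp1, which encodes the secreted protein osteopontin, was by far the most abundant member. Midostaurin tumors 2, 3 and 4 held 5773, 8032 and 8391 CPM, and vehicle tumors 1, 2 and 3 held 1975, 3882 and 5251 CPM. All treated tumors lay above all vehicle tumors, although vehicle tumor 3 came close to midostaurin tumor 2. The means were 7398 ± 1419 CPM in midostaurin tumors and 3703 ± 1645 CPM in vehicle tumors (SD, n = 3 each), and the log2 fold change was 1.00 ± 0.34 (SE), or 0.98 without vehicle tumor 2 and midostaurin tumor 3. Macrophages are a known source of Spp1, and the summed level of 10 macrophage markers was 364 to 857 CPM in midostaurin tumors and 979 to 1373 CPM in vehicle tumors. The treated tumor with the lowest macrophage sum, tumor 2, also had the lowest Spp1 of the treated tumors. Among the vehicle tumors, tumor 1 had the highest macrophage sum, 1373 CPM, and the lowest Spp1, 1975 CPM. The part of macrophages in the Spp1 difference was not tested. In bulk tissue, fewer cells of a type and less RNA per cell cannot be told apart. Gm42793, annotated on the same strand with 309 shared exon bases, took 37 to 686 counts per library, so a small share of Spp1 reads may be split with it.

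Mmp13, a collagen-cleaving protease of hypertrophic cartilage and bone, was at 23.4, 14.7 and 15.2 CPM in midostaurin tumors, against 15.2, 7.63 and 9.78 CPM in vehicle tumors. The groups overlapped, since vehicle tumor 1 reached the level of midostaurin tumors 3 and 4. The log2 fold change was 0.71 ± 0.30 (SE), and it lay between 0.46 and 1.04 with any 1 tumor left out and was 0.64 without vehicle tumor 2 and midostaurin tumor 3.

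Among the 8 members that passed the filter on low counts in tumors, 4 were higher in every treated tumor than in every vehicle tumor, where 13.5% of all 16094 genes were, and 1 was lower, where 13.5% of all genes were. Pthlh, Runx1, Runx2 and Spp1 were the 4 and Runx3 was the 1. Since members were chosen on this comparison, nothing is read from these shares. Across all genes, edgeR called 7 (0.0435%) and DESeq2 called 1447 (8.99%) at an adjusted p below 0.05.

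**Figure D1:**
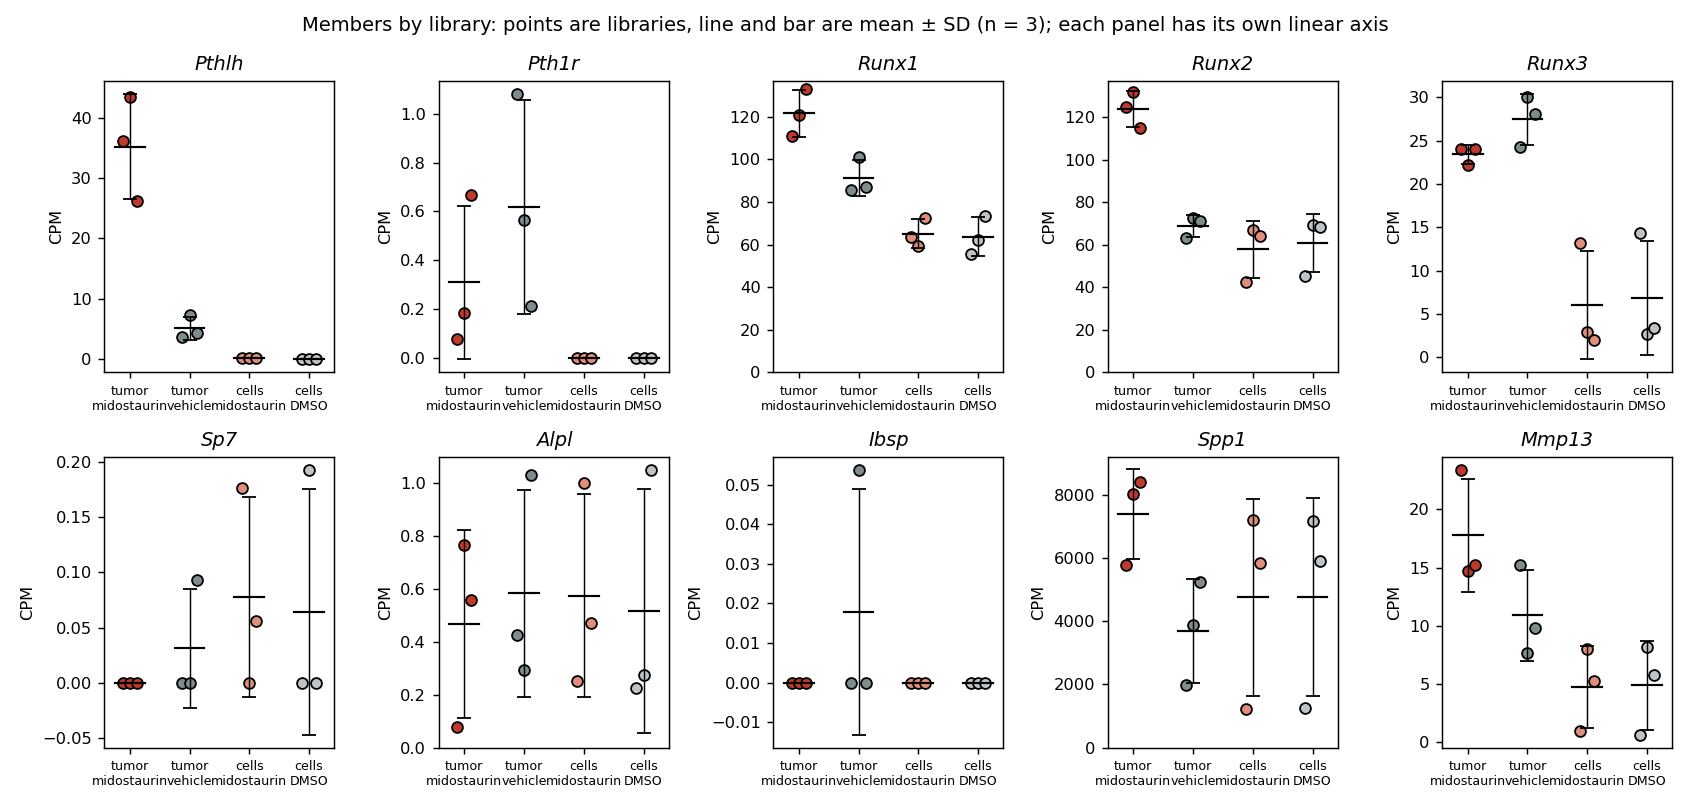
Level of each of the 10 genes (CPM, linear axis that differs between panels) in tumors given midostaurin, tumors given vehicle, cells given midostaurin and cells given DMSO. Points are libraries and the line with bar is the mean ± SD (n = 3). Pthlh sits between 26.2 and 43.5 CPM in midostaurin tumors and between 3.62 and 7.28 CPM in vehicle tumors, while Sp7, Alpl, Ibsp and Pth1r stay at or below 1.08 CPM throughout.

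The genes that define osteoblasts stayed at the edge of detection. Sp7 had 0 counts in each midostaurin tumor, against 0, 0 and 4 counts in vehicle tumors. In cells it had 7, 0 and 2 counts with midostaurin, against 0, 7 and 0 counts with DMSO. Ibsp was found with 2 counts in 1 of the 12 libraries, vehicle tumor 2. Alpl held 3, 25 and 26 counts in midostaurin tumors, against 17, 11 and 44 counts in vehicle tumors, and the groups overlapped. Its log2 fold change was -0.33 ± 0.79 (SE), or -1.17 without vehicle tumor 2 and midostaurin tumor 3. These genes therefore gave no view of a tumor difference at this depth.

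Other osteoblast and osteocyte markers behaved unevenly. Of 11 such markers, Bglap2 and Mepe were at 0 in all 6 tumors, and Sost and Dlx5 were at 0 in the midostaurin tumors and at or below 0.322 CPM in the vehicle tumors. Osteocalcin, encoded by Bglap, did not exceed 0.161 CPM in any tumor. The summed level of the 11 markers was 95.7, 121 and 215 CPM in midostaurin tumors, against 75.5, 75.5 and 103 CPM in vehicle tumors. Dmp1, Phex and Omd were among the markers detected. Dmp1, an osteocyte matrix protein, was at 28.8, 72.9 and 147 CPM in midostaurin tumors, against 11.6, 9.88 and 40.7 CPM in vehicle tumors. Its log2 fold change was 2.00 ± 0.73 (SE) with an adjusted p of 0.201 by edgeR, and the groups overlapped. The name of bone-like tumor genes thus did not match Sp7, Ibsp, Bglap and Mepe in these libraries, and the set is called here by its genes.

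Cartilage markers gave a similar picture. Sox9, the chondrocyte transcription factor, which intestinal epithelium also expresses, was at 65.7, 84.7 and 74.3 CPM in midostaurin tumors, against 28.3, 42.7 and 32.1 CPM in vehicle tumors. The groups did not overlap, and the log2 fold change was 1.12 ± 0.17 (SE) with an adjusted p of 0.0841 by edgeR and 5.57e-07 by DESeq2. Acan and Col9a1, which encode cartilage matrix proteins, were at 0 in the midostaurin tumors and at or below 0.134 CPM in the vehicle tumors. Col2a1, the main cartilage collagen, did not exceed 0.277 CPM in any tumor. Osteoclast markers varied from tumor to tumor, with sums over 7 genes of 6.95 to 50.9 CPM in midostaurin tumors and 4.20 to 45.9 CPM in vehicle tumors.

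**Figure D2:**
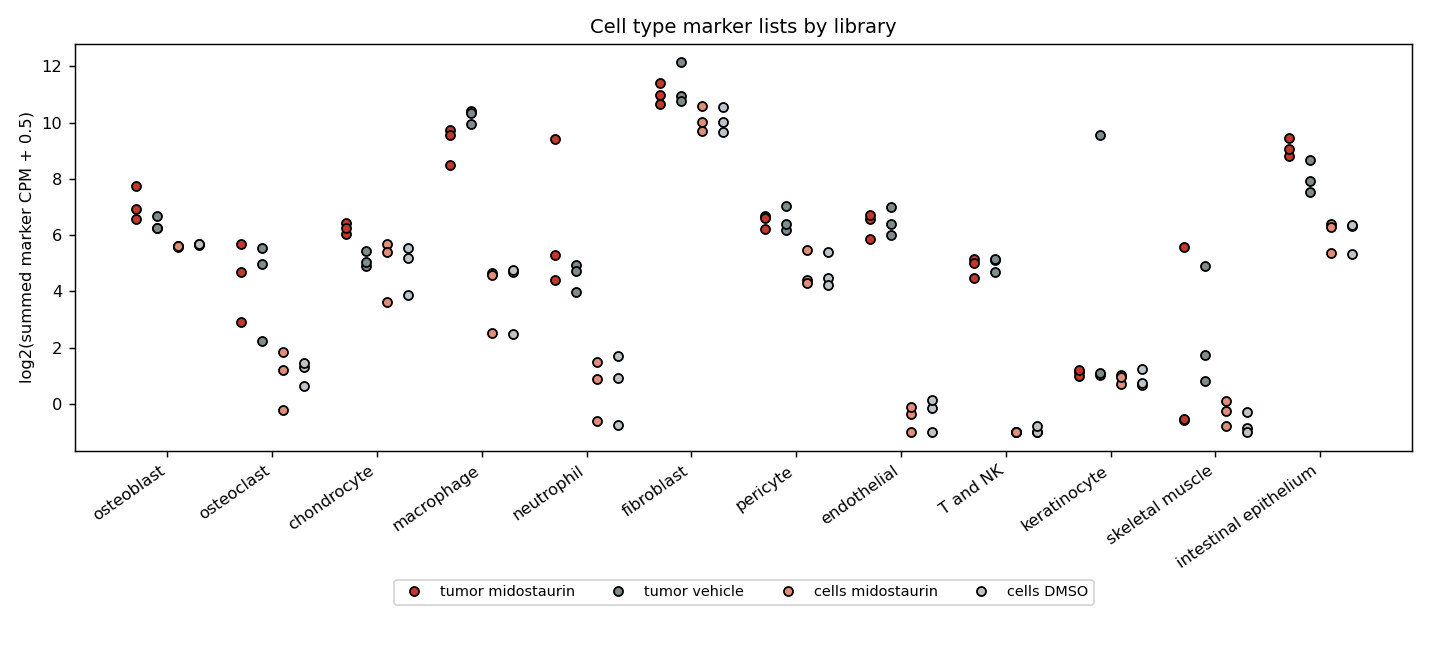
Summed level of each of 12 cell type marker lists, as log2 of the summed CPM plus 0.5, with 1 point per library and colours for the 4 groups. The keratinocyte point at 751 CPM is vehicle tumor 2 and the neutrophil point at 678 CPM is midostaurin tumor 3, while the macrophage sums are 364 to 857 CPM in midostaurin tumors and 979 to 1373 CPM in vehicle tumors.

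In cultured cells midostaurin was compared with DMSO, a contrast whose values were not used to choose the members, although earlier results of it were known. Of the 10 members, 6 passed the filter on low counts and were tested among 14538 genes. By edgeR 0 of the 6 were called at an adjusted p below 0.05, and 0 had an unadjusted p below 0.05, against a background of 0 called genes (0%) and 75 genes at an unadjusted p below 0.05. By DESeq2 0 of the 6 were called, where 2 genes of all (0.0138%) were, and with cell libraries blocked by number 0 of the 6 were called by edgeR, where 8 genes of all (0.0550%) were.

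Runx2 was at 42.4, 66.7 and 64.1 CPM in midostaurin cells 1, 2 and 3, against 45.1, 69.1 and 68.4 CPM in DMSO cells. It was lower in midostaurin cells in 3 of 3 same-numbered pairs, as were 11.0% of all genes, and the log2 fold change was -0.08 ± 0.23 (SE, adjusted p = 1 by edgeR). With the replicate number as a block the estimate was -0.08 ± 0.04 (SE), the unadjusted p was 0.0564 and the adjusted p was 0.992 by edgeR. In unblocked fits the sign turned without DMSO cells 2 (0.01), DMSO cells 3 (0.02) or midostaurin cells 1 (0.09). Each of those fits left a library without its same-numbered partner. Runx2 differed between replicate numbers, so these turns mix the number with the treatment and cannot show whether the pairs agree. No fit called Runx2 in cells, so no direction there was established. The tumor log2 fold change minus the cell log2 fold change was 0.92 ± 0.26 (SE), given without a test because Runx2 was chosen on its tumor difference.

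Runx1 was at 63.7, 59.1 and 72.4 CPM in midostaurin cells, against 55.4, 62.3 and 73.5 CPM in DMSO cells, and the log2 fold change of 0.03 ± 0.14 (SE) had an adjusted p of 1 by edgeR. Spp1 was at 1228, 7188 and 5831 CPM in midostaurin cells, against 1242, 7171 and 5909 CPM in DMSO cells. Its log2 fold change with the replicate block was -0.01 ± 0.01 (SE, adjusted p = 0.992 by edgeR), so same-numbered libraries held nearly equal levels. Mmp13 and Runx3 had block estimates of 0.04 ± 0.18 and -0.24 ± 0.17 (SE), with adjusted p-values of 0.994 and 0.992 by edgeR. Alpl had 10, 36 and 17 counts in midostaurin cells, against 9, 10 and 37 counts in DMSO cells.

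**Figure D3:**
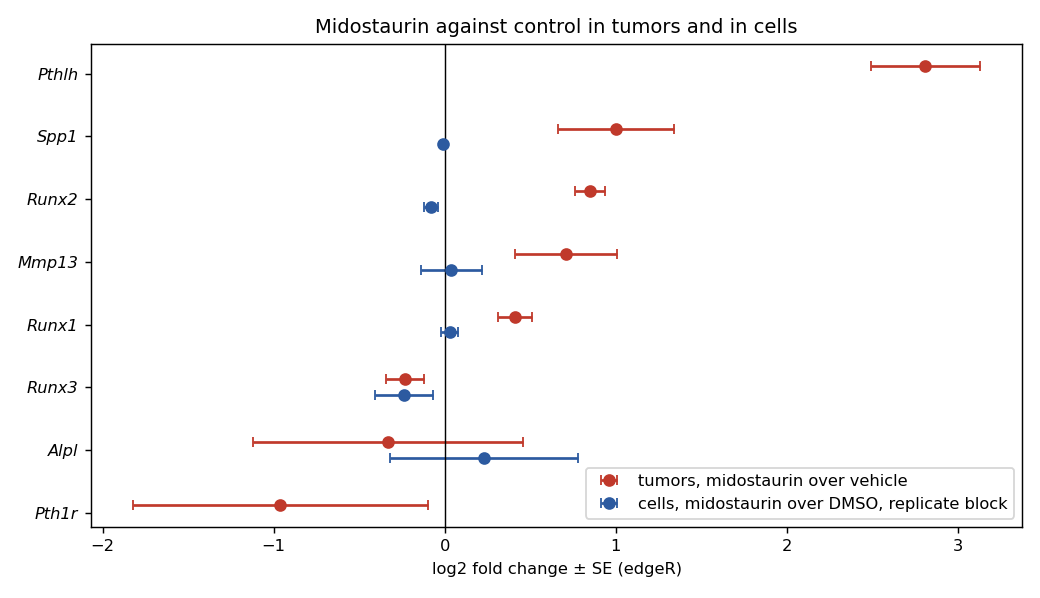
Fold change of the members on the log2 scale with its SE from edgeR, in tumors (midostaurin over vehicle, red) and in cells (midostaurin over DMSO with the replicate number as a block, blue). Pthlh at 2.81 lies farthest to the right in tumors and has no cell estimate because it did not pass the filter there, while Runx2 lies at 0.85 in tumors and at -0.08 in cells.

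For Spp1, Mmp13, Runx2 and Runx3 the cell libraries differed more by replicate number than by treatment. The 2 libraries numbered 1 averaged 1235 CPM of Spp1, against 6525 CPM in the 4 libraries numbered 2 and 3. For Mmp13 these means were 0.792 CPM in the libraries numbered 1 and 6.76 CPM in the others, and for Runx2 they were 43.8 and 67.1 CPM. Runx3 went the opposite way, with 13.8 CPM in the libraries numbered 1 and 2.78 CPM in the others. The values did not overlap between the libraries numbered 1 and the others for these 4 genes. For Alpl they were kept apart only by library scaling, since midostaurin cells 1 and DMSO cells 2 each held 10 counts. The share of all genes that separated in this way is not given here, so this is not read as particular to the members. These groups of libraries were set apart after the values were seen and the difference carries no test. With both libraries numbered 1 left out, Runx1 had a log2 fold change of -0.06 and still no member was called by edgeR.

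**Figure D4:**
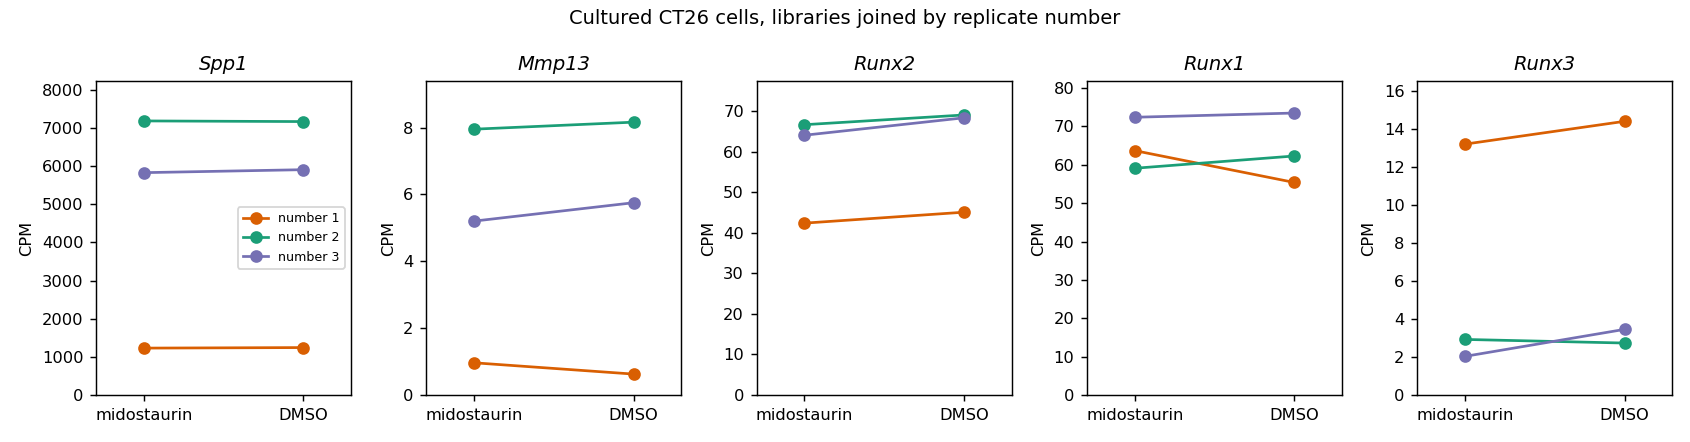
Level of 5 members in cultured cells (CPM, linear axes from 0), with a line joining the midostaurin and the DMSO library of the same replicate number. Lines are nearly flat for Spp1, while the number 1 pair lies at 1228 and 1242 CPM and the other pairs between 5831 and 7188 CPM.

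Vehicle tumors were set against DMSO cells to show which members differ between tissue and culture without the drug. Leaving out Pth1r, which is at 0 in the cells, 5 members could be tested, and edgeR called 2 higher and 0 lower in vehicle tumors, against backgrounds of 24.5% of 16965 genes higher and 19.7% lower. Runx1 was at 85.6, 101 and 87.1 CPM in vehicle tumors, against 55.4, 62.3 and 73.5 CPM in DMSO cells, an estimated log2 difference of 0.52 ± 0.13 (SE) that edgeR gave an adjusted p of 0.00755. Runx3 was at 24.3, 30.0 and 28.1 CPM in vehicle tumors, against 14.4, 2.73 and 3.45 CPM in DMSO cells, and the log2 fold change of 1.99 ± 0.74 (SE) had an adjusted p of 0.0487 by edgeR.

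The Runx3 call rested on narrow margins in the unblocked fit. It was lost with no filter on low counts (adjusted p = 0.0682 by edgeR) and when any of 8 libraries was left out in turn, namely each of the 6 tumors (0.0639 to 0.101) and DMSO cells 2 and 3 (0.143 and 0.148). Without DMSO cells 1 the log2 fold change was 3.16 (adjusted p = 0.00576 by edgeR), while without any 1 tumor it stayed between 1.92 and 2.07. When cell libraries were blocked by number, its log2 fold change was 2.41 ± 0.16 (SE, adjusted p = 5.46e-06 by edgeR). T and NK markers moved with it, at 25.2 to 35.3 CPM in vehicle tumors and 0 to 0.0850 CPM in DMSO cells, and their part in the Runx3 difference was not tested.

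Spp1, Alpl and Mmp13 did not pass the test between vehicle tumors and DMSO cells. The log2 fold changes were -0.36 ± 0.67 for Spp1, 0.18 ± 0.86 for Alpl and 1.18 ± 0.80 for Mmp13 (SE), with adjusted p-values of 0.689, 0.882 and 0.253 by edgeR. When cell libraries were blocked by number Mmp13 passed, at 1.78 ± 0.30 (SE, adjusted p = 0.000839 by edgeR), which made 3 of the 5 members called where 57.9% of all genes were. Runx2 was at 63.1 to 72.6 CPM in vehicle tumors and 45.1 to 69.1 CPM in DMSO cells, groups that overlapped, and is given without a test.

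On the scale of CPM per kilobase of exon, the order of the members changed between the tumor groups. In midostaurin tumors Spp1 averaged 4489, Pthlh 21.8, Runx2 14.0, Runx1 10.1, Mmp13 6.65 and Runx3 4.68 CPM per kilobase. In vehicle tumors Spp1 averaged 2247, Runx2 7.79, Runx1 7.59, Runx3 5.48, Mmp13 4.07 and Pthlh 3.11 CPM per kilobase. Pthlh was thus the second of these 6 in treated tumors and the last of them in vehicle tumors. Alpl, Pth1r, Sp7 and Ibsp stayed at or below 0.211 CPM per kilobase in every group mean.

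The genes whose tumor profile was most like that of Pthlh were Osbpl8, Atg7, Tmem170b, Atp6v1d and Cttn, with Pearson r over the 6 tumors of 0.9971, 0.9948, 0.9938, 0.9932 and 0.9924 among 10365 named genes with a mean tumor level of at least 5 CPM. Runx2 followed at 0.9918. For Runx2 they were Stk38l, Nrbf2, Arl6ip5, Osbpl8 and Atp6v1d, with r of 0.9990, 0.9981, 0.9964, 0.9941 and 0.9934. The likeness was measured on log2(CPM + 0.5). With 6 tumors in 2 treatment groups these values are set largely by the gap between the groups and are a description. Their fold changes were smaller than that of Pthlh, with log2 values of 0.50 for Osbpl8, 0.47 for Atg7 and 1.05 for Stk38l.

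Around the members, 8 lists held 114 other genes of the same pathways. In tumors 96 of them were tested, and edgeR called 0 higher and 0 lower. At an unadjusted p below 0.05 edgeR had 27 of the 96 (28.1%), where 19.9% of all genes had one. DESeq2 called 10 higher and 4 lower, or 14.6% of the 96, where 8.99% of all genes were called, 5.43% higher and 3.56% lower. The median log2 fold change of the 96 was 0.13 in tumors, against -0.01 over all genes. In cells 81 were tested, edgeR and DESeq2 called 0 of them, and 0 had an unadjusted p below 0.05 by edgeR. Between vehicle tumors and DMSO cells 100 were tested, and edgeR called 28 higher and 17 lower in vehicle tumors, where 24.5% of all genes were higher and 19.7% lower. Some of those called higher, Itga4 among them, were at 0 in every cell library. They passed the filter on low counts only through tumors, so nothing is read from the count of genes called higher. The median log2 fold change of the 100 was -0.08, against 0.04 over all genes.

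Downstream of the PTH receptor, Gnas, Prkaca and Prkacb, which encode the stimulatory G protein and protein kinase A catalytic subunits, had tumor log2 fold changes of -0.06, 0.01 and 0.17 and adjusted p-values of 0.844, 0.959 and 0.346 by edgeR. Gnas averaged 819 ± 67.5 CPM in midostaurin tumors and 853 ± 126 CPM in vehicle tumors (SD, n = 3 each). The arrestin genes, named after their values were seen, moved apart by DESeq2. Arrb1 averaged 108 ± 33.4 CPM in midostaurin tumors and 56.2 ± 12.1 CPM in vehicle tumors (SD, n = 3 each; adjusted p = 0.00466 by DESeq2, 0.127 by edgeR), and Arrb2 averaged 56.4 ± 13.9 CPM in midostaurin tumors and 85.0 ± 8.53 CPM in vehicle tumors (adjusted p = 0.0283 by DESeq2, 0.155 by edgeR).

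Hedgehog and TGF-beta signals are known regulators of Pthlh. Smo, Smad3 and Smad4 were the most abundant genes of that list over all 12 libraries, with log2 fold changes of -0.34, 0.21 and 0.20 in tumors and adjusted p-values of 0.196, 0.413 and 0.193 by edgeR. Smad7, the feedback inhibitor of TGF-beta signalling, was at 41.9, 46.6 and 46.2 CPM in midostaurin tumors, against 28.8, 26.0 and 25.5 CPM in vehicle tumors. The groups did not overlap, and the log2 fold change was 0.75 ± 0.09 (SE, adjusted p = 0.0654 by edgeR and 1.26e-08 by DESeq2). It was named after its values were seen.

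RUNX partners and regulators gave no call by edgeR in tumors. Wwtr1, Atf4 and Cebpb, the most abundant of them over all 12 libraries, had log2 fold changes of 0.24, -0.01 and 0.60 in tumors, with adjusted p-values of 0.377, 0.984 and 0.248 by edgeR. Cebpb was at 379.8 CPM in midostaurin tumor 3, and without that tumor and vehicle tumor 2 its log2 fold change was 0.41. Smurf1, a ubiquitin ligase that acts on RUNX2, averaged 225 ± 33.4 CPM in midostaurin tumors and 138 ± 15.3 CPM in vehicle tumors (SD, n = 3 each; adjusted p = 0.0850 by edgeR and 0.000172 by DESeq2). Twist1, which encodes a factor that holds back RUNX2, averaged 127 ± 2.15 CPM in midostaurin tumors and 101 ± 4.41 CPM in vehicle tumors (adjusted p = 0.0936 by edgeR and 0.000879 by DESeq2). Smurf1 and Twist1 were picked for mention once their values were known.

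In the BMP list Bmpr1a, Smad5 and Grem1, the most abundant over all 12 libraries, had log2 fold changes of 0.14, 0.16 and 0.55 in tumors, and none of these 3 passed either test. For Grem1 it was 1.23 without vehicle tumor 2 and midostaurin tumor 3. DESeq2 called Acvr1 and Id2 higher and Smad6 lower, named after their values were seen. Acvr1, a BMP type I receptor, averaged 87.0 ± 5.33 CPM in midostaurin tumors and 62.8 ± 3.88 CPM in vehicle tumors (SD, n = 3 each; adjusted p = 0.0841 by edgeR and 0.000168 by DESeq2). Smad6, the inhibitor of BMP signalling, averaged 1.68 ± 0.276 CPM in midostaurin tumors and 4.34 ± 1.72 CPM in vehicle tumors (adjusted p = 0.111 by edgeR and 0.00710 by DESeq2).

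Among genes of mineral handling, Ank, Slc20a1 and Slc20a2 were the most abundant over all 12 libraries and passed neither test in tumors. Mgp, the matrix inhibitor of calcification, averaged 37.4 ± 15.4 CPM in midostaurin tumors and 13.5 ± 6.71 CPM in vehicle tumors (SD, n = 3 each; adjusted p = 0.166 by edgeR and 0.00760 by DESeq2), and was named after its values were seen. Its log2 fold change was 1.47, or 0.78 without vehicle tumor 2 and midostaurin tumor 3. Osteopontin binds integrins and CD44. Cd44, Itgb1 and Itgb5 had log2 fold changes of 0.34, 0.18 and 0.03 in tumors, with adjusted p-values of 0.230, 0.256 and 0.924 by edgeR. Itga4, an integrin of leukocytes, averaged 6.06 ± 1.64 CPM in midostaurin tumors and 11.4 ± 3.32 CPM in vehicle tumors (adjusted p = 0.158 by edgeR and 0.0304 by DESeq2), and was picked for mention once its values were known.

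Beside Mmp13, Timp2, Timp1 and Mmp14 were the most abundant genes of the protease and inhibitor list over all 12 libraries. Timp1, an inhibitor of MMPs, averaged 441 ± 137 CPM in midostaurin tumors and 248 ± 87.1 CPM in vehicle tumors (SD, n = 3 each; adjusted p = 0.233 by edgeR and 0.0481 by DESeq2). Of the 11 genes tested in this list, 10 had a log2 fold change above 0 and the median was 0.46, where 47.9% of all genes lay above 0. These figures include vehicle tumor 2 and midostaurin tumor 3. The log2 fold changes of Timp2, Timp1 and Mmp14 were 0.17, 0.83 and 0.31 over all tumors. Without those tumors they were 0.23, 0.82 and 0.10.

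Among 11 tested genes of osteoclast-forming signals, edgeR called 0 in tumors. DESeq2 called 2 higher and 1 lower, where 5.43% of all genes were called higher and 3.56% lower. At an unadjusted p below 0.05 edgeR had 4, where 19.9% of all genes had one. Csf1, the growth factor for macrophages and osteoclast precursors, was estimated at -0.12 ± 0.28 on the log2 scale (SE) with an adjusted p of 0.842 by edgeR. Ptgs2, the inducible prostaglandin synthase, was at 285, 531 and 157 CPM in midostaurin tumors, against 75.1, 129 and 92.4 CPM in vehicle tumors (adjusted p = 0.119 by edgeR and 0.0216 by DESeq2). Il11, a cytokine that acts on osteoclast formation, was at 27.9, 50.1 and 64.7 CPM in midostaurin tumors, against 10.6, 22.2 and 18.5 CPM in vehicle tumors (adjusted p = 0.115 by edgeR and 0.000569 by DESeq2). The receptor RANK, encoded by Tnfrsf11a, averaged 5.42 ± 1.93 CPM in midostaurin tumors and 12.2 ± 3.98 CPM in vehicle tumors (SD, n = 3 each; adjusted p = 0.137 by edgeR and 0.0111 by DESeq2). Il11 and Tnfrsf11a were named after their values were seen. Lif was at 177 CPM in midostaurin tumor 3, which had the high neutrophil sum, and between 14.5 and 21.3 CPM in the other 5 tumors. Its log2 fold change was 2.11 over all tumors and 0.19 without vehicle tumor 2 and midostaurin tumor 3.

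**Figure D5:**
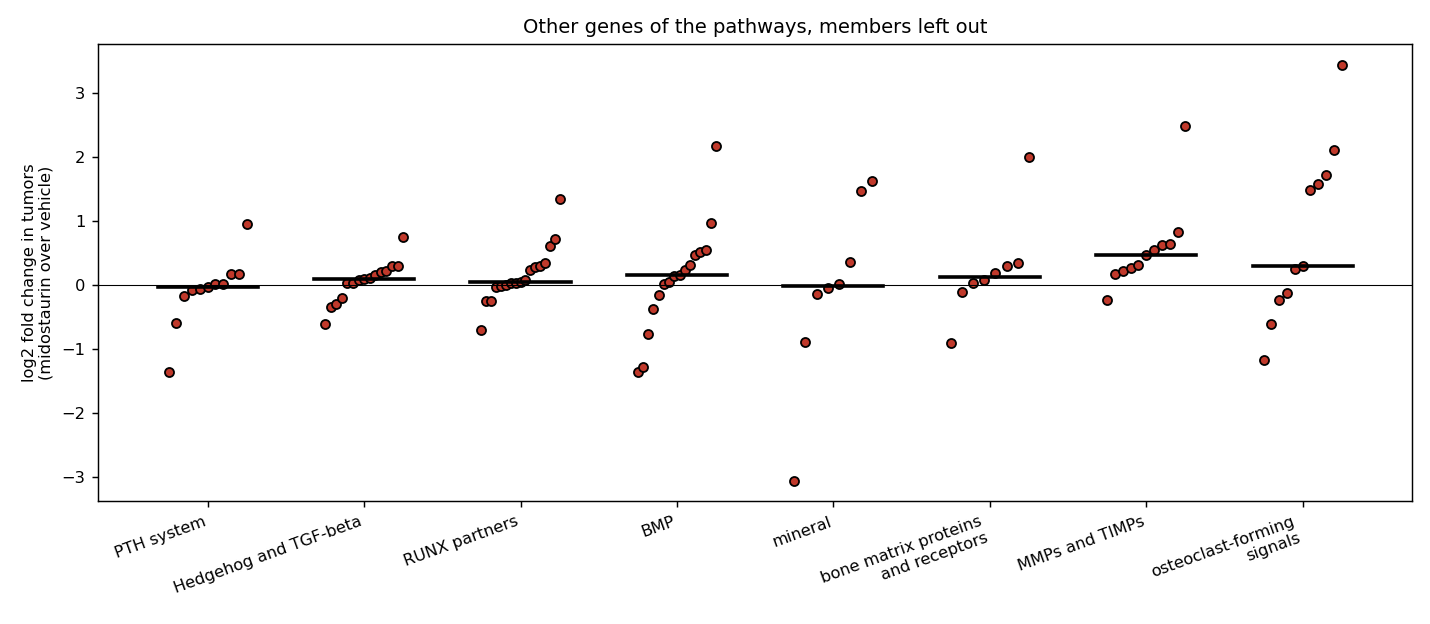
Fold change on the log2 scale in tumors (midostaurin over vehicle) of the tested genes in 8 pathway lists, with the members left out. Points are genes in order of value within a list and lines are medians over all tumors. The median is 0.46 for the MMPs and TIMPs and 0.30 for the osteoclast-forming signals. These medians are lower without the vehicle tumor high in keratinocyte markers and the midostaurin tumor high in neutrophil markers. The middle gene is then Timp2 at 0.23 for the MMPs and TIMPs. For the osteoclast-forming signals it is Itgb3 at 0.06.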

How the data were processed

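Counts per gene were deposited by the authors in 2 tables, one for cells and one for tumors. The submitters' processing notes name FastQC 0.11.2, Bowtie2 2.3.4, RSEM and the build mm10, and the labels' protocols name a directional poly(A) kit. The annotation and the strand setting of the counting are not given in the sources used here. The deposited counts were whole numbers and were used as deposited. Of 55335 gene IDs, 99.7% matched a symbol, and gene positions were read from GENCODE vM21 on the same build. One treated tumor column is numbered 4 where the labels number 1 to 3, and was used by its group.

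edgeR 4.0.16 in R 4.3.3 was used with filterByExpr, TMM and its quasi-likelihood test, with Benjamini-Hochberg adjustment over all genes tested and a threshold of 0.05. Cells and tumors were fitted apart, and vehicle tumors against DMSO cells in 1 fit over all 12 libraries. DESeq2 1.42.0 was an alternative. On simulated counts with a dispersion of 0.02, edgeR recovered 200 of 200 genes changed 4-fold, with 12 false calls in cells (14346 genes) and 15 in tumors (15932 genes). The simulation gave all genes the same dispersion and held no difference between replicate numbers. It checks that the fit runs properly and does not show its power in these libraries. The filter passed 6 of 10 members in cells, 8 in tumors and 8 in the joint fit. The floor of 3 counts per library covers counting error only.

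Cell libraries with the same replicate number deviated together (correlations 0.90, 0.72 and 0.70 over 14538 genes), so the blocked fit (replicate number as a factor) is given where it changes a call. Tumor numbers did not pair (0.15 and -0.19 for the 2 shared numbers). The tables for cells and tumors were scaled together only for levels and for the joint fit, in which tissue and culture cannot be told apart from any difference in how the tables were made. Members and lists were chosen with earlier results of these data known. The text names the members, the 3 most abundant genes of each pathway list, the 5 genes most like Pthlh and Runx2, and others where it says so. One gene of the lists is not reported here by name.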

Additional observations from a re-analysis of the deposited data

Results flagged for a closer look

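Runx2 had fold changes of opposite sign in tumors and in cells. Its tumor log2 fold change minus its cell log2 fold change was 0.92, since all 3 midostaurin tumors lay above all 3 vehicle tumors while all 3 midostaurin cell libraries lay below the DMSO library of the same number. This difference was not tested, because Runx2 was chosen on its tumor values. The cell change, -0.08, missed the threshold in the fits run, so a direction in cells was not established. Its sign turned in 3 of the 6 unblocked fits that left out 1 cell library. Those fits left a library without its same-numbered partner, so the turns mix the replicate number with the treatment.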

How the results depend on the processing

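Over all genes, edgeR called 0 in cells, against 2 by DESeq2, 8 with the replicate block and 1 with both libraries numbered 1 left out. In tumors edgeR called 7, against 1447 by DESeq2, and 0 with no filter on low counts, 0 with the replicate block, 0 with vehicle tumor 2 and midostaurin tumor 3 left out together, and 0 to 1 with any 1 tumor left out. The tumor block used only numbers 2 and 3, which did not pair. When the cell response was subtracted from the tumor response 1 gene was called, against 99 by DESeq2, 16 with the block in the cells and 1 to 6 with 1 library left out, the 6 being without midostaurin tumor 4. The cause of these shifts was not tested. Both left-out pairs of libraries were chosen after the data were seen.

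In cells the sign of small fold changes turned between fits. Mmp13 was at 0.04 with the replicate block and Runx1 at -0.06 with both libraries numbered 1 left out. With 1 cell library left out the log2 fold change lay between -0.06 and 0.15 for Runx1, -0.25 and 0.09 for Runx2, -1.50 and 0.99 for Runx3, -0.50 and 1.18 for Alpl, -0.47 and 0.44 for Spp1 and -0.65 and 0.54 for Mmp13, with no call by edgeR. These fits were unblocked and left a library without its same-numbered partner. The ranges therefore also hold the difference between replicate numbers. For Spp1 the replicate block over all cell libraries gave -0.01 ± 0.01 (SE). In vehicle tumors against DMSO cells, leaving out 1 library gave -0.49 to 1.22 for Alpl and -0.81 to 0.04 for Spp1. Directions in tumors held for Pthlh (2.63 to 3.18), Runx2 (0.80 to 0.91), Runx1 (0.31 to 0.50), Spp1 (0.60 to 1.34), Mmp13 (0.46 to 1.11) and Runx3 (-0.32 to -0.12) under the alternatives run, while Alpl (-1.17 to 0.36) changed sign without vehicle tumor 3 (0.36) or midostaurin tumor 2 (0.17). Pth1r lay between -2.23 and -0.28. Depth limits Sp7, Ibsp, Alpl and Pth1r, and Pthlh in cells.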
